A study of Mus musculus with 25 samples.

Results

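The metallothioneins and zinc transporters measured in perigonadal white fat comprised 9 genes, namely Mt1, Mt2, Mt3, Mtf1, Slc30a1, Slc30a2, Slc39a4, Slc39a8 and Slc39a14. They were taken by the gene name the array gives to its probes, which yielded 15 probes of the 40561 in the series table and 9 of its 26392 gene or transcript names. Mt1 was selected on its large difference in log2 level between the wild-type mice of the 2 lines, so levels in the wild types are given for all members as a description, with no test. All 25 arrays came from male C57BL6/J mice, 1 array a mouse, that were fasted for 24 h and then refed for 18 h with food and 20% glucose in the drinking water. Every group, controls included, shared this regimen, which is meant to activate ChREBP, the glucose-responsive transcription factor encoded by Mlxipl. The ChREBPbeta_KO group (6 mice) carried a CRISPR/Cas9 deletion of exon 1b of Mlxipl, the exon specific to the beta isoform, and was compared with ChREBPbeta_WT (7 mice). The ChREBPtotal_KO group (5 mice) lacked both the alpha and the beta isoform and was compared with ChREBPtotal_WT (7 mice) of that line. Both deletions are constitutive, so that every tissue of the animal lacks the isoform, and the ages of the mice are not given in the sources used here. A wild type of one line differs from a wild type of the other by line as well as by any difference in breeding or housing, and these cannot be told apart.

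Metallothioneins are small cysteine-rich proteins that bind zinc and copper. Zinc entering the cytosol activates the zinc-finger factor MTF1, which binds metal response elements in the promoters of Mt1, Mt2 and Slc30a1. Slc30 proteins (ZnT) carry zinc out of the cytosol, either out of the cell or into vesicles, and Slc39 proteins (ZIP) carry it in. Glucocorticoids, inflammatory cytokines and oxidative stress are further inducers of Mt1 and Mt2, and white adipocytes express both genes.

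The promoters of the metal-responsive members are shown because Mt1, Mt2 and Slc30a1 are the classical MTF1 targets among the members. RefSeq windows on GRCm38.p6 (250 bases before to 50 after a transcript start, forward strand for these 3 genes) were at hand for 7 of the 9 members, in 8 windows. Capitals mark the core of the metal response element, searched as TGCACNC and TGCGCNC on both strands. For Mt2 the whole stretch before the transcript start is given, chr8:94172368-94172617. For Mt1 the matches lie at chr8:94179055-94179083 and chr8:94179089-94179117, the latter from the first base of the transcript the window was built on, and for Slc30a1 at chr1:191906727-191906755 and chr1:191906800-191906828.
Mt2: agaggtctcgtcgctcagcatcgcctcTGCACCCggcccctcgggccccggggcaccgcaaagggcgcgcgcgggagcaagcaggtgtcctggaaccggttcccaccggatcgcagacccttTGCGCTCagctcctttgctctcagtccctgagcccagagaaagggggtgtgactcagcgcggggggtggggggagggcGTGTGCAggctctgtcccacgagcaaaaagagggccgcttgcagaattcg
Mt1, first stretch: cggtcccgctgTGCACACtggcgctccag
Mt1, second stretch: tcTGCACTCcgcccgaaaagTGCGCTCgg
Slc30a1, first stretch: acgggggttccGAGTGCAaagcaaagttt
Slc30a1, second stretch: gcctccgggccGAGCGCAgtcgccgcgga
A core match was present in 6 of the 8 member windows, those of Mt1, Mt2, Mt3, Slc30a1, Slc30a2 and 1 of the 2 Slc39a8 windows, and in 25.7% of all 32851 windows. The E-box CACGTG, the unit of which ChREBP sites are built, was found in 1 member window, of Slc39a8, against 7.15% of all windows. A match is a description of the letters and not evidence of binding.

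Mt1 was represented by 2 probes that behaved differently, so their positions and sequences are given. The bright probe, A_66_P111660, lies at chr8:96704165-96704224 on mm9 and is assigned by the array to the transcript NM_013602. The upstream probe, A_52_P423810, lies at chr8:96703844-96703903, with 261 bases between the 2 probes, and is assigned to the predicted transcript XM_006530752. In the RefSeq table on GRCm38.p6 the first annotated base of Mt1 precedes the start used for the promoter window by 206 bases, so that more than 1 transcript start is annotated. The first 30 of the 60 bases of each probe are printed to show what was hybridised. The bright probe has a GC content of 41.7% and the upstream probe of 51.7%.
Mt1, bright probe: cctgtttactaaacccccgttttctaccga
Mt1, upstream probe: aactggctctgagaaatgtcctttgcttcc
No member probe shared a run of 20 bases with a probe of another gene, and the longest run shared by the bright Mt1 probe and the Mt2 probe was 7 bases.

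Levels below are deposited log2 values of quantile-normalised median spot intensity. A level of one probe cannot be set against that of another, since probes differ in how well they bind. The 9 members were well above the local background on all 25 arrays with every probe, and no spot was saturated. Arrays of a group correlated at 0.970 to 0.997 over all probes, and each of the 4 wash batches named in the labels held all 4 groups. The probe for Mlxipl read 15.98 ± 0.16 (SD, n = 7) in ChREBPtotal_WT and 14.21 ± 0.08 (SD, n = 5) in ChREBPtotal_KO, a fall of 1.77 (limma, adjusted p = 1.11e-08). It read 15.07 ± 0.27 (SD, n = 7) in ChREBPbeta_WT and 14.34 ± 0.31 (SD, n = 6) in ChREBPbeta_KO, with all 6 KO arrays below all 7 WT arrays but an adjusted p of 0.116 in the limma fit. Whether that probe lies in the deleted part was not determined.

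Genes used as markers of other tissues differed between arrays, and their levels are given first because those of several transporters were high on the same arrays. Where this RNA came from was not tested. Shared highest and lowest arrays were looked up for all 15 member probes and every marker list. Only some are given below, and how many chance would give was not tested. The summed log2 level of 8 adipocyte markers was 20.5 to 20.8 on all 25 arrays, with all 5 ChREBPtotal_KO arrays (20.75 to 20.78) above all 7 ChREBPtotal_WT arrays (20.54 to 20.65). The brightest marker, Cfd, read 18.68 on every ChREBPtotal_WT array and 18.79 on every ChREBPtotal_KO array. Only Lipe had a lower median in ChREBPtotal_KO, 13.40 against 13.71. The 4 of 6 pancreas markers measured summed to a median of 12.9 in ChREBPtotal_KO and 13.8 in ChREBPtotal_WT. That sum was carried by Cela1, with medians of 12.83 and 13.80. Cpa1 (5.04 and 4.84), Ctrb1 (6.90 and 6.91) and Cel (7.75 and 7.67) lay far lower and did not follow it. The summed level of 8 liver markers, all measured, was 18.1 to 20.0 in ChREBPbeta_WT (median 19.6), 17.0 to 19.7 in ChREBPbeta_KO (median 18.2), 16.7 to 18.4 in ChREBPtotal_WT (median 17.5) and 17.9 to 18.2 in ChREBPtotal_KO (median 18.2). In the ChREBPtotal line that sum was mostly carried by Cyp2e1, which adipocytes also express. Its median was 17.24 in ChREBPtotal_WT and 18.14, its highest, in ChREBPtotal_KO. Every other liver marker had a lower median in ChREBPtotal_KO than in ChREBPtotal_WT, such as Ttr at 4.93 and 8.39. Albumin (Alb) had medians of 17.2 in ChREBPbeta_WT, 16.0 in ChREBPbeta_KO, 12.1 in ChREBPtotal_WT and 10.6 in ChREBPtotal_KO. The 4 of 6 intestine markers measured summed to a median of 11.6 in ChREBPbeta_WT, 10.5 in ChREBPbeta_KO and 9.11 and 9.12 in ChREBPtotal_WT and ChREBPtotal_KO. The line difference of that sum was carried by Fabp2, with medians of 11.51, 10.14, 6.36 and 5.58 in the same order. Vil1 (7.17, 6.15, 7.72 and 7.17) did not follow it, and Lct and Muc2 lay at medians of 4.67 to 6.07. The 2 of 8 epididymis markers measured, Adam7 and Defb42, summed to above 12 on 5 arrays, at least 1 in every group, and the 6 of 8 kidney tubule markers measured reached 16.5 in ChREBPbeta_WT. In bulk tissue, fewer cells of a type and less RNA per cell cannot be told apart.

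Among the 9 genes, each taken by its brightest probe, none passed the threshold (adjusted p under 0.05) between ChREBPbeta_KO and ChREBPbeta_WT, where 0% of all 26392 genes passed and 2493 genes, 1 member among them, had an unadjusted p under 0.05 in the limma fit. Over all probes the share called was also 0%, with 3659 of 40561 probes at an unadjusted p under 0.05. In ChREBPtotal_KO against ChREBPtotal_WT, 1 of 9 genes was lower (background 9.25% of genes), and 2 of 15 probes were called (background 8.79% of probes). Of these 2 probes, 1 is an Mt1 probe that is not read as a test, since its wild-type arrays led to the choice of Mt1. The difference between the 2 knockout effects was called for 1 of 9 genes (background 3.47%) and 1 of 15 probes (background 3.21%). ChREBPtotal_KO differed from ChREBPbeta_KO in 1 of 9 genes (background 18.3%) and 4 of 15 probes (background 18.0%). The called gene was Slc30a1 in all 3 comparisons, and these shares do not set the members apart from the rest of the array. The median difference over the 9 genes was -0.22 for ChREBPbeta loss and -0.23 for loss of both isoforms, with 7 of 9 genes lower in each, beside medians of 0.02 over all genes in both. The 2 knockout comparisons share no arrays with each other, but each shares its wild-type arrays with the comparison that picked Mt1, and both share arrays with the other 2.

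**Figure D1:**
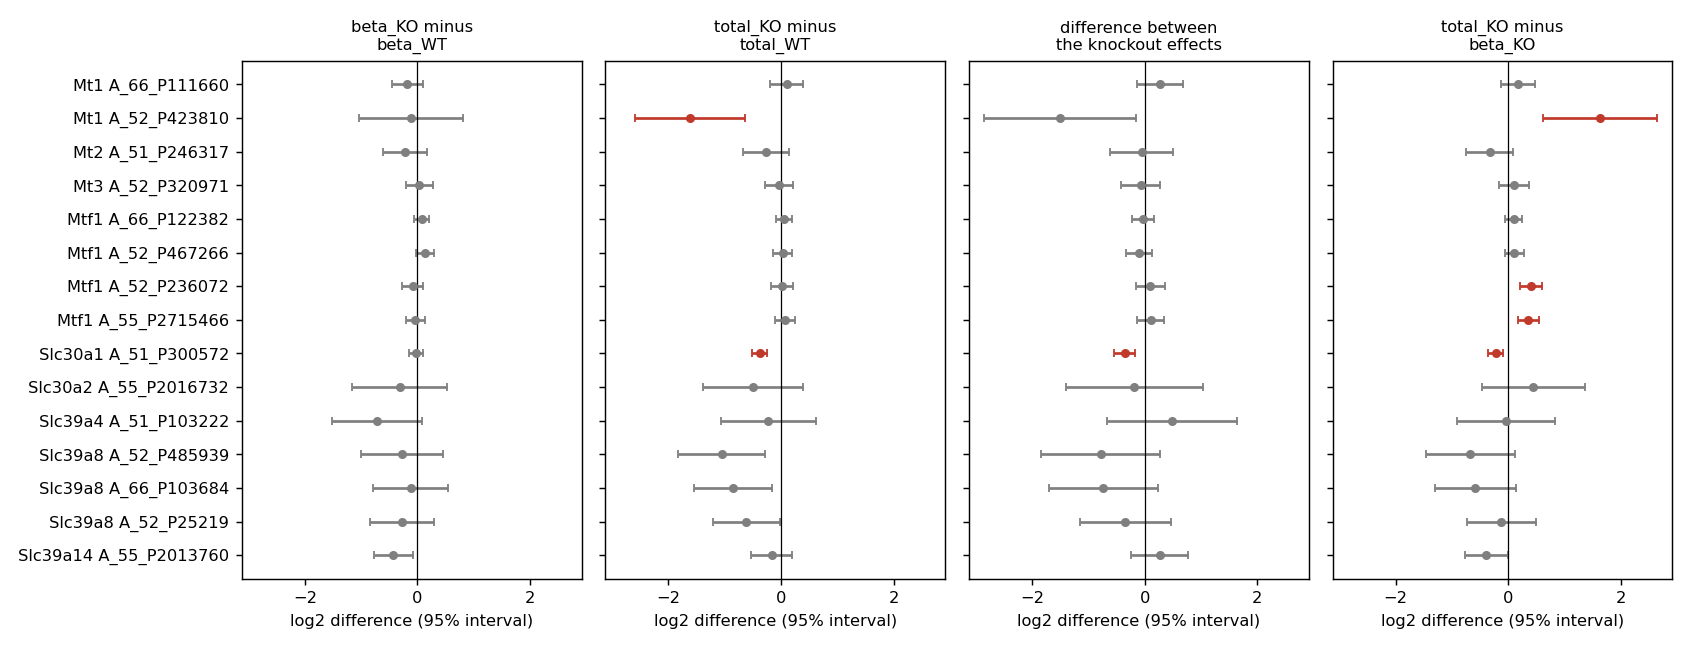
Log2 differences (x axis) with 95% confidence intervals for the 15 member probes (rows) in the 4 tested comparisons, from 1 limma fit of 25 arrays, with red marking an adjusted p under 0.05. No probe is red for ChREBPbeta loss, and Slc30a1 is the gene whose only probe is red in the 3 other panels. The upstream Mt1 probe (A_52_P423810) is also red for ChREBPtotal_KO minus ChREBPtotal_WT. It is not read as a test there, since its wild-type arrays led to the choice of Mt1.

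Mt1, one of the 2 widely expressed metallothioneins, passed the threshold in neither knockout with its bright probe. In ChREBPbeta_WT this probe ranged from 15.66 through a median of 16.53 to 16.58, and in ChREBPbeta_KO from 15.91 through 16.19 to 16.36. In ChREBPtotal_WT it ranged from 16.11 through 16.16 to 16.56, and the 5 ChREBPtotal_KO arrays read 16.16, 16.27, 16.28, 16.48 and 16.52. All 4 groups overlapped, with means of 16.34 ± 0.37 (SD, n = 7), 16.18 ± 0.18 (SD, n = 6), 16.24 ± 0.16 (SD, n = 7) and 16.34 ± 0.15 (SD, n = 5) in that order. The difference was -0.18 (95% interval -0.46 to 0.10, adjusted p = 0.753 in the limma fit) for ChREBPbeta loss and 0.10 (-0.20 to 0.39, adjusted p = 0.798) for loss of both isoforms. Between the wild types the bright probe differed by -0.10, ChREBPtotal_WT minus ChREBPbeta_WT.

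The large difference between the wild types that led to the choice of Mt1 was carried by the upstream probe alone. It ranged from 6.41 through a median of 7.66 to 8.14 in ChREBPbeta_WT and from 9.02 through 11.00 to 11.78 in ChREBPtotal_WT. All 7 ChREBPtotal_WT arrays lay above all 7 ChREBPbeta_WT arrays, by 3.14 in the mean or 8.79-fold, and within the wash batches by 2.67, 3.8, 3.32 and 3.09. With liver, kidney and epididymis marker scores as covariates the difference was 1.86. In raw intensity the same probe spanned 74 to 280.5 in ChREBPbeta_WT and 555 to 3997 in ChREBPtotal_WT, whereas the bright probe was at 39647 or above on every array. The order of the group means was ChREBPbeta_KO (7.48 ± 0.31, SD, n = 6), ChREBPbeta_WT (7.59 ± 0.60, n = 7), ChREBPtotal_KO (9.09 ± 1.15, n = 5) and ChREBPtotal_WT (10.72 ± 0.94, n = 7). The lowest neighbours, ChREBPbeta_KO and ChREBPbeta_WT, did not differ beyond their spread.

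The knockout arrays, which had no part in the choice of Mt1, showed a line difference of the same direction with the upstream probe. The ChREBPbeta_KO arrays ranged from 7.05 through a median of 7.48 to 7.92, and the ChREBPtotal_KO arrays read 8.05, 8.56, 8.81, 9.0 and 11.05. All 5 ChREBPtotal_KO arrays lay above all 6 ChREBPbeta_KO arrays, by 1.63 ± 0.48 (SE) or 3.10-fold (limma, adjusted p = 0.0226), against 18.0% of probes called in this comparison. The call rested on replicate 7 of ChREBPtotal_KO, the array at 11.05, without which the difference was 1.05 (adjusted p = 0.0869 in the limma fit). Within the 4 wash batches it was 1.41, 1.21, 3.69 and 0.45. That array also had the highest epididymis marker sum of its group, and without the 5 arrays whose sum was above 12, a choice made after seeing the data, the difference was 0.92 (adjusted p = 0.206 in the same fit). With the marker scores as covariates it was 1.24 (adjusted p = 0.422, limma), and over all probes the number called in this comparison fell from 7288 to 1957.

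The upstream probe read lower in ChREBPtotal_KO than in ChREBPtotal_WT, with a difference of -1.61 ± 0.47 (SE), or 3.06-fold. The ChREBPtotal_WT arrays are those whose high level led to the choice of Mt1, which favours a fall from them. This difference is therefore given as a description and its adjusted p is not used, although the probe counts among the 2 called probes above. Of the 5 KO arrays, 4 lay below all 7 WT arrays and replicate 7 lay among them. Leaving out 1 array at a time gave differences from -2.26, without that replicate, to -1.24, without ChREBPtotal_KO replicate 1. The difference was -1.22 with liver, kidney and epididymis marker scores as covariates and -1.58 in a fit of only these groups. Within the wash batches the difference was -1.62, -2.61, 0.70 and -3.02, the positive value being that of batch 3, which holds replicate 7. ChREBPbeta loss gave -0.11 (95% interval -1.04 to 0.82, adjusted p = 0.975 in the limma fit), with a control arm that took part in the choice as well. Which transcript the upstream probe reports was not determined.

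**Figure D2:**
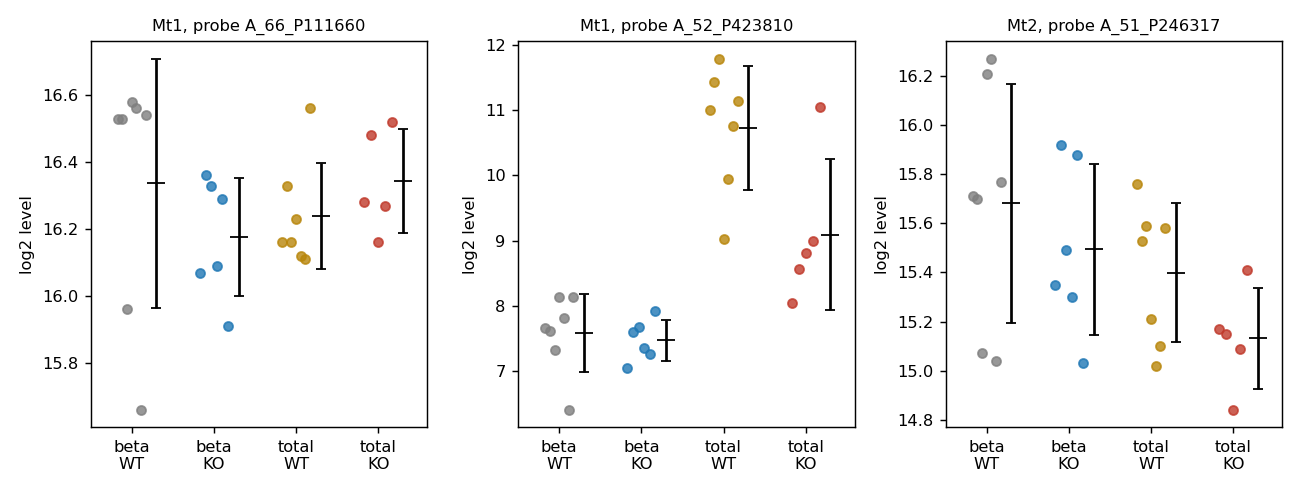
Log2 level (y axis) of the 2 Mt1 probes and the Mt2 probe on each of 25 arrays by group, with the group mean and SD as black bars. The y axes differ and start above 0. The upstream Mt1 probe (A_52_P423810) lies at 9.02 or above in all 7 ChREBPtotal_WT arrays and at or below 8.14 in all 7 ChREBPbeta_WT arrays, while the bright Mt1 probe and Mt2 overlap in all groups.

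Mt2, the metallothionein gene next to Mt1 and usually induced with it, passed the threshold in no comparison. Its probe (chr8:96697371-96697430, mm9) ranged from 15.04 through 15.71 to 16.27 in ChREBPbeta_WT and from 15.03 through 15.42 to 15.92 in ChREBPbeta_KO. In ChREBPtotal_WT it ranged from 15.02 through 15.53 to 15.76, and the ChREBPtotal_KO arrays read 14.84, 15.09, 15.15, 15.17 and 15.41. The groups overlapped, and the differences were -0.22 (95% interval -0.61 to 0.17, adjusted p = 0.793) for ChREBPbeta loss and -0.27 (-0.68 to 0.14, adjusted p = 0.509) for loss of both isoforms in the limma fit. ChREBPtotal_KO minus ChREBPbeta_KO was -0.33 (95% interval -0.75 to 0.09) and did not pass either (adjusted p = 0.284, limma). Across the 25 arrays Mt2 correlated with the bright Mt1 probe at r = 0.64, and at 0.77 after group and wash batch were taken out, while the bright and the upstream Mt1 probes correlated at 0.18, and at 0.44 after group and wash batch were taken out. The upstream probe and Mt2 correlated at -0.04, and at 0.51 after the same step. These are descriptions over arrays that share groups and normalisation.

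Mt3, a metallothionein best known from the brain, had raw intensities of 441 to 974 here, above the array medians of 84 to 127. Its group means were between 9.08 and 9.25, and its differences were 0.03 (95% interval -0.21 to 0.27) for ChREBPbeta loss and -0.04 (-0.29 to 0.22) for loss of both isoforms. The limma adjusted p was 0.970 and 0.926, and all 4 groups overlapped.

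Mtf1, the zinc-sensing transcription factor, had 4 probes on chromosome 4. Its brightest probe read 11.36 ± 0.16 (SD, n = 7) in ChREBPbeta_WT, 11.43 ± 0.10 (n = 6) in ChREBPbeta_KO, 11.48 ± 0.07 (n = 7) in ChREBPtotal_WT and 11.52 ± 0.13 (n = 5) in ChREBPtotal_KO. It passed the threshold in no comparison, with differences of 0.07 (95% interval -0.06 to 0.21) for ChREBPbeta loss and 0.05 (-0.09 to 0.19) for loss of both isoforms. Of the 3 other probes, the 2 dimmest were higher in ChREBPtotal_KO than in ChREBPbeta_KO, A_52_P236072 by 0.40 (adjusted p = 0.00515) and A_55_P2715466 by 0.35 (adjusted p = 0.00860, both limma), and neither differed in a knockout against its own wild type. For A_52_P236072 the ChREBPtotal_KO arrays read 8.0, 8.19, 8.19, 8.23 and 8.25 and the ChREBPbeta_KO arrays 7.61 to 8.0, so that the groups met at one end. Without the 5 arrays high in epididymis markers its line difference was 0.32 (adjusted p = 0.0555, limma). With the marker scores as covariates both calls were lost, at 0.43 (adjusted p = 0.167) and 0.39 (adjusted p = 0.184, both limma) in the same order. These differences were no smaller than without the covariates. Over all probes, the number called in this comparison fell from 7288 to 1957 with them. The 4 probes disagreed on the size of this line difference, since the 2 brighter ones gave 0.09 and 0.11.

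Slc30a1 (ZnT1), the exporter at the cell surface and an MTF1 target, was the only member gene called. In ChREBPtotal_WT its probe (chr1:193736760-193736819, mm9) ranged from 9.97 through a median of 10.08 to 10.19. The ChREBPtotal_KO arrays read 9.65, 9.69, 9.71, 9.74 and 9.78, all 5 below all 7 WT arrays. The fall was 0.38 ± 0.06 (SE) on the log2 scale, a 1.30-fold decrease (limma, adjusted p = 0.000337). It was present in each wash batch, with differences of -0.34, -0.47, -0.39 and -0.33, and in 25 of 25 fits that left out 1 array. In the same comparison 9.25% of all genes were called. Without the 5 arrays high in epididymis markers the difference was -0.38 (adjusted p = 0.0104, limma). In 3 of 4 groups the array with the highest Slc30a1 also had the highest intestine marker sum, while the lowest arrays coincided in 1 of 4. The medians of that sum were 9.11 and 9.12 in ChREBPtotal_WT and ChREBPtotal_KO. Of its markers, Fabp2 (6.36 and 5.58) and Vil1 (7.72 and 7.17) had lower medians in ChREBPtotal_KO, and Lct (4.88 and 5.75) and Muc2 (5.90 and 6.03) higher ones. The adipocyte and pancreas marker sums did move between these groups, the latter through Cela1. Their part in the fall of Slc30a1 was not tested.

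ChREBPbeta loss left Slc30a1 at 9.93 ± 0.11 (SD, n = 6) against 9.95 ± 0.12 (SD, n = 7), a difference of -0.02 (95% interval -0.15 to 0.10, adjusted p = 0.955 in the limma fit). The ChREBPbeta_WT arrays ranged from 9.78 through 9.95 to 10.12 and the ChREBPbeta_KO arrays started at 9.82 with a median of 9.94, so that these groups overlapped. The 2 knockout effects differed by -0.36 ± 0.09 (SE, adjusted p = 0.0234, limma), and the 5 ChREBPtotal_KO arrays lay below all 6 ChREBPbeta_KO arrays, with a mean difference of -0.23 (adjusted p = 0.0206, limma). The difference of the effects lost its call without ChREBPtotal_KO replicate 2 or 3 or ChREBPbeta_KO replicate 5, where it was -0.34 each time with an adjusted p up to 0.0567 in the same fit, and it was -0.39 (adjusted p = 0.0832) without the 5 arrays high in epididymis markers. The line difference lost it without ChREBPtotal_KO replicate 2 or 3 or ChREBPbeta_KO replicate 4 or 5, with adjusted p up to 0.0621.

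Slc30a2 (ZnT2), which loads zinc into secretory vesicles, was near the lower end of the scale, with raw intensities of 42 to 483.5. It ranged from 5.58 to 7.57 in ChREBPbeta_WT, 5.62 to 7.49 in ChREBPbeta_KO, 5.96 to 8.67 in ChREBPtotal_WT and 5.62 to 7.28 in ChREBPtotal_KO. These ranges overlapped throughout. The differences were -0.31 (95% interval -1.16 to 0.53) for ChREBPbeta loss and -0.50 (-1.38 to 0.39) for loss of both isoforms, with limma adjusted p of 0.887 and 0.601. Its highest ChREBPtotal_WT array was replicate 2, which also had the highest epididymis marker sum of all arrays, 16.62. The highest arrays coincided in this way in 1 of 4 groups.

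Slc39a8 (ZIP8), an importer of zinc and manganese, had the largest fitted difference for loss of both isoforms among the 3 importers of the 9 genes. Its brightest probe ranged from 9.72 through 10.50 to 11.94 in ChREBPtotal_WT, and the ChREBPtotal_KO arrays read 8.91, 9.01, 9.44, 9.84 and 10.31. The groups overlapped, since 2 KO arrays lay within the WT range. The difference was -1.06 ± 0.37 (SE), with an adjusted p of 0.0843 in the limma fit, and the 2 dimmer probes gave -0.85 (adjusted p = 0.135) and -0.62 (adjusted p = 0.218). All 3 missed the threshold, although leaving out ChREBPtotal_WT replicate 7 brought the brightest to -1.21 (adjusted p = 0.0480). Within the wash batches the differences were -1.66, 0.12, 0.17 and -2.04, so that 2 of the 4 batches showed none of it. ChREBPbeta loss gave -0.28 (95% interval -1.0 to 0.45, adjusted p = 0.885).

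Slc39a8 peaked on the arrays with the most epididymis marker signal. In each of the 4 groups, the array with the highest epididymis marker sum was the one with the highest level of the brightest Slc39a8 probe. With each of the 2 dimmer probes this held in 3 of 4 groups. For the brightest probe the lowest arrays coincided in 1 of 4 groups. Its highest arrays were ChREBPbeta_WT replicate 1 (marker sum 13.38, Slc39a8 10.94), ChREBPbeta_KO replicate 2 (13.94 and 11.32), ChREBPtotal_WT replicate 2 (16.62 and 11.94) and ChREBPtotal_KO replicate 7 (12.64 and 10.31). The part of the epididymis signal in the levels of Slc39a8 was not tested beyond leaving arrays out. Without the 5 arrays whose sum was above 12 the difference between ChREBPtotal_KO and ChREBPtotal_WT was -0.96 (adjusted p = 0.125, limma).

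**Figure D3:**
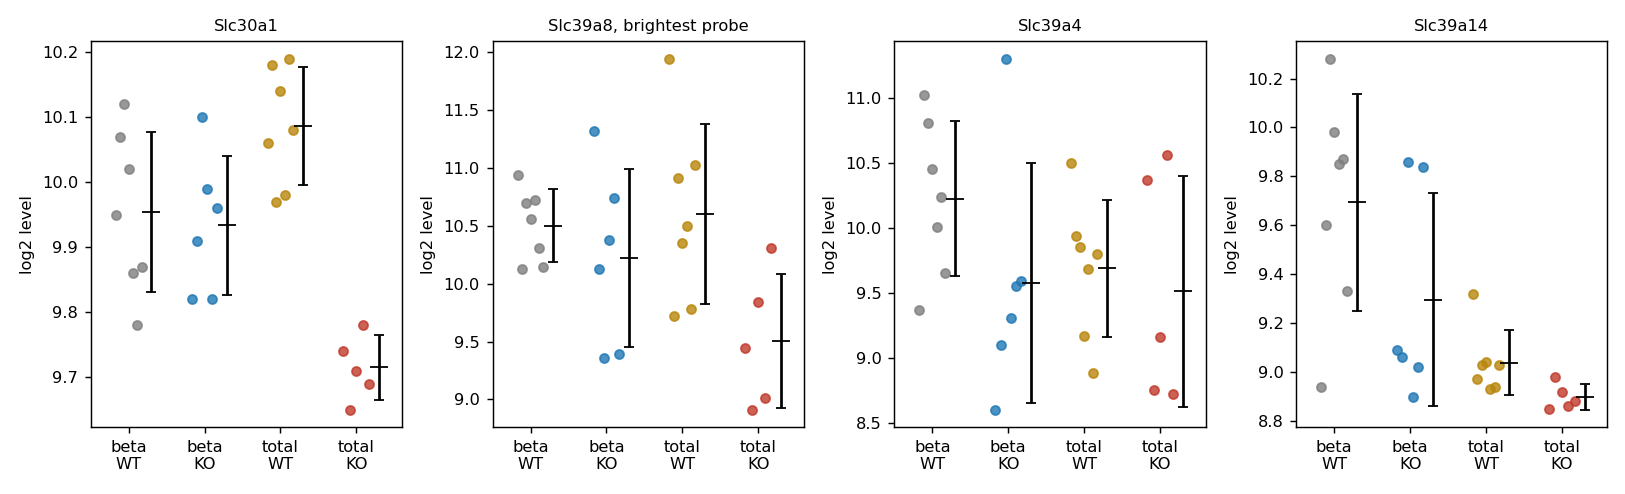
Log2 level (y axis) of 4 zinc transporters on each of 25 arrays by group, with the group mean and SD as black bars. The y axes differ and start above 0. The 5 ChREBPtotal_KO arrays of Slc30a1 lie at or below 9.78 and under all other ChREBPtotal arrays, whereas the groups overlap for Slc39a8 and Slc39a4.

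Slc39a4 (ZIP4), the main importer of dietary zinc in the intestine, varied widely within groups. It ranged from 9.37 to 11.02 in ChREBPbeta_WT, from 8.60 to 11.30 in ChREBPbeta_KO, from 8.88 to 10.50 in ChREBPtotal_WT and from 8.72 to 10.56 in ChREBPtotal_KO. The groups overlapped. The differences were -0.72 (95% interval -1.52 to 0.08, adjusted p = 0.605) for ChREBPbeta loss and -0.23 (-1.07 to 0.61, adjusted p = 0.844) for loss of both isoforms in the limma fit. The array at 11.30, ChREBPbeta_KO replicate 4, had the highest intestine marker sum of its group, 12.15. In 3 of 4 groups the array with the lowest intestine sum had the lowest Slc39a4, while the highest arrays coincided in 2 of 4. Whether these are related was not tested.

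Slc39a14 (ZIP14), the importer that takes up zinc, iron and manganese in liver and is induced in inflammation, read higher in ChREBPbeta_WT than in ChREBPtotal_WT. It ranged from 8.94 through 9.85 to 10.28 in ChREBPbeta_WT and from 8.90 through 9.08 to 9.86 in ChREBPbeta_KO. In ChREBPtotal_WT it ranged from 8.93 through 9.03 to 9.32, and the ChREBPtotal_KO arrays read 8.85, 8.86, 8.88, 8.92 and 8.98. The wild types differed by -0.66, ChREBPtotal_WT minus ChREBPbeta_WT, with overlap at the lower end of ChREBPbeta_WT. Neither knockout passed the threshold, with -0.43 (95% interval -0.78 to -0.08, adjusted p = 0.445) for ChREBPbeta loss and -0.17 (-0.53 to 0.20, adjusted p = 0.695) for loss of both isoforms. ChREBPtotal_KO minus ChREBPbeta_KO was -0.39 (adjusted p = 0.147, limma).

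The level of Slc39a14 moved with the liver markers in the ChREBPbeta line, and its highest arrays there also had high intestine marker sums. ChREBPbeta_KO replicates 4 and 8, at 9.86 and 9.84, had the highest liver marker sums of their group, 19.59 and 19.71. The 4 other ChREBPbeta_KO arrays had liver sums of 16.98 to 18.23 and Slc39a14 levels of 8.90 to 9.09. In ChREBPbeta_WT the highest level, 10.28 in replicate 3, fell on the highest liver sum, 20.02, and the lowest level, 8.94 in replicate 1, on the lowest, 18.14. In ChREBPtotal_WT replicate 2, the array at 9.32, had the highest liver sum of its group at 18.37. The intestine marker sum was likewise the highest of its group in ChREBPbeta_WT replicate 3 (12.98) and ChREBPbeta_KO replicate 4 (12.15). In ChREBPbeta_WT its lowest value, 9.84, fell on replicate 1. For the liver and the intestine sums alike, the highest arrays coincided in 2 of 4 groups and the lowest in 1 of 4. The part of either set of markers in the levels of Slc39a14 was not tested. With liver, kidney and epididymis marker scores as covariates the difference of the wild types went from -0.66 to 0.24. The liver sum differed between the wild types (medians of 19.6 in ChREBPbeta_WT and 17.5 in ChREBPtotal_WT). In the score used as covariate each marker weighs the same. In the same order, Alb had medians of 17.2 and 12.1 and Ttr of 14.9 and 8.4, whereas Cyp2e1 was alike at 17.25 and 17.24. This fit therefore cannot separate liver signal from line.

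**Figure D4:**
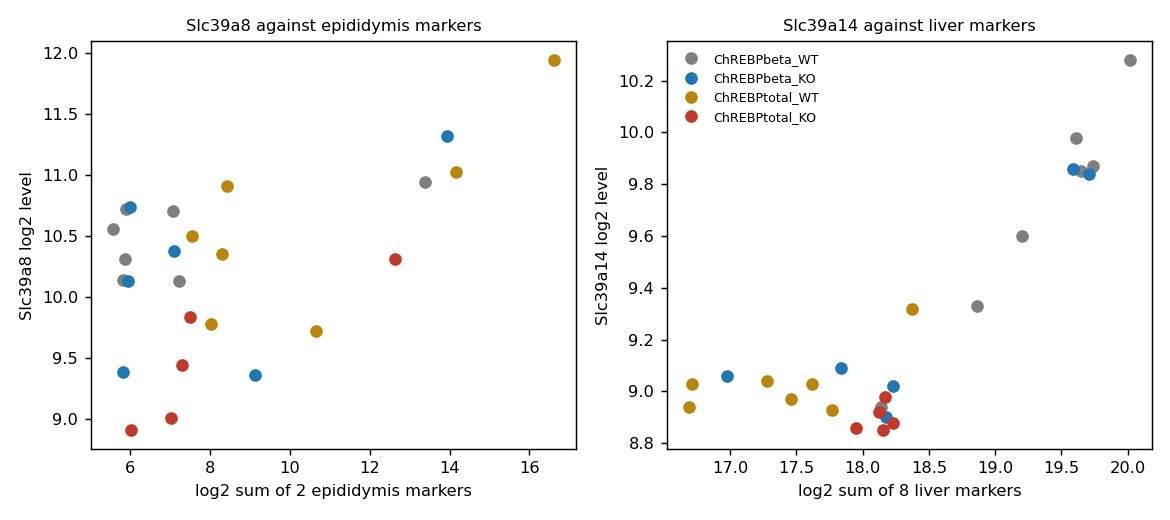
Slc39a8 (left, brightest probe, log2 level on the y axis) against the log2 sum of 2 epididymis markers, and Slc39a14 (right) against the log2 sum of 8 liver markers, with 1 point for each of 25 arrays coloured by group. In each group the array with the most epididymis signal has the highest Slc39a8, and the highest Slc39a14 level, 10.28, falls on the highest liver sum, 20.02.

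Of 21 other genes of zinc handling, 18 were measured. None passed for ChREBPbeta loss (3 had an unadjusted p under 0.05 in the limma fit), 2 were lower and 0 higher by their brightest probes in ChREBPtotal_KO than in ChREBPtotal_WT (9.25% of all genes called), and the median differences of the list were 0.02 and -0.01. The larger of the 2 was Slc39a6 (ZIP6), an importer first known as an oestrogen-regulated gene. It ranged from 10.47 through 10.82 to 11.03 in ChREBPtotal_WT, and the ChREBPtotal_KO arrays read 9.61, 9.61, 9.64, 9.69 and 9.72. All 5 KO arrays lay below all 7 WT arrays, with a difference of -1.16 ± 0.11 (SE), or 2.23-fold (limma, adjusted p = 1.57e-07). ChREBPbeta loss gave 0.09 (adjusted p = 0.860), the 2 effects differed by -1.25 (adjusted p = 1.84e-05), and ChREBPtotal_KO minus ChREBPbeta_KO was -0.94 (adjusted p = 1.23e-05). Mt4, a metallothionein of squamous epithelia with a mean level of 5.35, fell by 0.29 (adjusted p = 0.0368) in ChREBPtotal_KO. Between the knockouts, where 18.3% of all genes were called, 3 of the 18 were called, Slc39a6 and Slc39a13 lower, the latter with a difference of -0.52 (adjusted p = 0.00805), and Slc39a10 higher by 0.54 (adjusted p = 0.0464, all limma). The probes of Slc39a13 disagreed for loss of both isoforms, since its brightest gave -0.11 (adjusted p = 0.739) and its dimmest, A_55_P2718775, was higher by 0.58 (adjusted p = 6.15e-05, limma).

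The genes whose levels were most like the bright Mt1 probe over the 25 arrays were Rbm43 (r = 0.76), Pip5k1a (0.73), Tfdp2 (0.69), Babam1 (0.68) and Cdk19 (0.68). After group and wash batch were taken out they were Pip5k1a (0.81), Cic (0.79), Mccc1 (0.78), Bin3 (0.78) and Cdk19 (0.78). For the upstream probe, a comparison added after its values were seen, the levels were most like Rcbtb2 (0.92), Agpat3 (0.92), Rps12 (0.91), Gfm2 (0.91) and Rmdn3 (0.91). Its residuals were most like Ier3 (0.80), Fos (0.79), Timp3 (0.79), Wnt9b (0.79) and Nr4a1 (0.77), of which Fos, Ier3 and Nr4a1 are immediate early genes. No gene was named for both probes.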

How the data were processed

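RNA of perigonadal white adipose tissue was labelled with Cy3 and hybridised to 1-colour Agilent mouse arrays. The authors took the median pixel intensity of each spot (Agilent Feature Extraction 10.10.1.1), filtered spots on scanner flags, quantile-normalised, took the median of replicated probes and deposited log2 values, which were used here for 25 arrays. Other arrays of the study were not analysed here. Each deposited column correlated at 0.99982 or above with the log2 median intensity of its scanner file, whose intensities served for alternatives. Array medians of the raw intensity were 84 to 127 over a background of 15 to 22, and the number of arrays limits the precision. Probe coordinates are those of the array annotation (mm9). Of 56605 probes, 32994 were named through an accession of the RefSeq table and 12864 kept the name of the array. A gene was represented by its brightest probe.

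All groups were fitted at once with limma 3.58.1 in R 4.3.3 (lmFit, eBayes), with group and wash batch as terms, 18 residual degrees of freedom and Benjamini-Hochberg adjustment over all 40561 probes. The comparison of the wild types, used to pick Mt1, was not tested. The script was tested on simulated data. Genes named were all members, called genes of the lists, and the 5 genes most like Mt1. Members and lists were chosen with earlier results of these data known. Each array is 1 mouse, and p-values measure the spread between these mice. Replicate numbers were not taken to pair mice. Same-numbered arrays deviated together at r of -0.43 to 0.39 in the ChREBPbeta line and -0.24 to 0.14 in the other, with 1 of 5 and 1 of 4 pairs above 0.1. Across the lines r was -0.12 to 0.55 for the knockouts, with 2 of 3 pairs above 0.1. For the wild types it was -0.13 to 0.27, with 3 of 6 pairs above 0.1. Alternatives covered background and normalisation, the wash batch, slide and replicate terms, array weights, the groups fitted, dim probes, the mean over a gene's probes, marker scores, and single arrays left out. A marker score is the mean, over the measured markers of a list, of each log2 level less that marker's mean over the arrays. It is not the summed level. Leaving out arrays with an epididymis, or an epididymis or kidney, marker sum above 12 was chosen after seeing the data.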

Additional observations from a re-analysis of the deposited data

Results flagged for a closer look

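A sample far from the others of its group was found in 6 of 60 combinations of member probe and group by Dixon's criterion, which chance flags in about 1 of 20. ChREBPbeta_KO replicate 4 accounted for 3 of them, with the Mtf1 probe A_52_P467266 at 8.98 (next array 9.42), Slc30a2 at 7.49 (next 5.94) and Slc39a4 at 11.3 (next 9.59). The Mtf1 probe A_52_P236072 read 7.47 in ChREBPbeta_WT replicate 7 (next 7.81) and 8.0 in ChREBPtotal_KO replicate 4 (next 8.19). Slc39a14 read 9.32 in ChREBPtotal_WT replicate 2 (next 9.04). The effects of the 2 knockouts on Slc30a1 differed, by -0.36 on the log2 scale (limma, adjusted p = 0.0234).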

How the results depend on the processing

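The call of Slc30a1 for loss of both isoforms was kept in every alternative run and in 25 of 25 fits that left out 1 array. The number of member genes called for it was 1 to 2 over those fits, against 0 to 1 for the difference between the knockout effects, 0 to 1 for ChREBPtotal_KO against ChREBPbeta_KO and 0 to 0 for ChREBPbeta loss. The count for the difference between the effects was 0 with the replicate block, with marker scores as covariates, and with arrays high in epididymis markers, or in epididymis or kidney markers, left out. The count between the knockouts was 0 with the replicate block, the covariates, a fit of only those groups, and arrays high in epididymis or kidney markers left out, and 3 with the mean over a gene's probes. With the replicate number as a block, Slc30a1 stayed called for loss of both isoforms (-0.39, limma, adjusted p = 0.00829). The Mtf1 probe A_55_P2715466 did not stay called between the knockouts (0.33, adjusted p = 0.0690 in the same fit). The upstream Mt1 probe, given as a description, was at -1.54 for loss of both isoforms. With this block the difference of the effects for Slc30a1 was -0.36 (adjusted p = 0.183, limma), at 11 residual degrees of freedom. Why calls were lost with the block was not tested. Mt1 between the wild types, by its brightest probe, was -0.21 to -0.04 when 1 array was left out, -0.94 with the covariates and 1.52 with the mean over probes, which takes in the upstream probe. For the other shifts the cause was not tested, and settings that leave out arrays also test fewer samples.

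Differences of the tested comparisons that changed sign, all of them uncalled under both settings, were as follows. With processed signals scaled to the 75th percentile, these were for loss of both isoforms, Mt1 A_66_P111660 -0.077, Mtf1 A_52_P236072 -0.031. With array quality weights, these were for ChREBPbeta loss, Mt3 -0.030, Mtf1 A_55_P2715466 0.0086, for loss of both isoforms, Mtf1 A_52_P236072 -0.033, for the difference of the effects, Mtf1 A_66_P122382 0.021, Slc30a2 0.024, and for the line difference of the knockouts, Slc39a4 0.067. With the marker covariates, these were for ChREBPbeta loss, Mtf1 A_55_P2715466 0.013, for loss of both isoforms, Mtf1 A_52_P467266 -0.044, Slc30a2 0.22, Slc39a4 0.31, Slc39a14 0.10, for the difference of the effects, Mt2 0.35, Slc30a2 0.39, Slc39a8 A_52_P25219 0.19, and for the line difference of the knockouts, Mt1 A_66_P111660 -0.43, Mtf1 A_52_P467266 -0.027, Slc39a4 1.41, Slc39a14 0.52. Without the arrays high in epididymis markers, these were for ChREBPbeta loss, Mt1 A_52_P423810 0.00043, Mtf1 A_55_P2715466 0.039, Slc30a1 0.012, for loss of both isoforms, Mt1 A_66_P111660 -0.021, Mt3 0.014, Mtf1 A_52_P467266 -0.042, Mtf1 A_52_P236072 -0.11, Slc30a2 0.059, Slc39a4 0.11, and for the difference of the effects, Mtf1 A_52_P236072 -0.067, Mtf1 A_55_P2715466 -0.00032, Slc30a2 0.16. Without those high in epididymis or kidney markers, these were for ChREBPbeta loss, Mt3 -0.11, Mtf1 A_55_P2715466 0.014, Slc39a8 A_66_P103684 0.027, for loss of both isoforms, Mt3 0.0086, Mtf1 A_66_P122382 -0.0021, Mtf1 A_52_P467266 -0.051, Mtf1 A_52_P236072 -0.071, Slc30a2 0.11, Slc39a4 0.098, for the difference of the effects, Mt3 0.12, Slc30a2 0.64, and for the line difference of the knockouts, Slc39a4 0.27. With the mean over a gene's probes, these were for loss of both isoforms, Mt1 A_66_P111660 -0.76, and for the difference of the effects, Mt1 A_66_P111660 -0.61, Mtf1 A_66_P122382 0.019. Leaving out 1 array at a time, the ranges that crossed 0 were for ChREBPbeta loss, Mt1 A_52_P423810 -0.31 to 0.030, Mt3 -0.073 to 0.077, Mtf1 A_55_P2715466 -0.081 to 0.012, Slc30a1 -0.054 to 0.0069, Slc39a8 A_66_P103684 -0.32 to 0.085, for loss of both isoforms, Mt3 -0.10 to 0.044, Mtf1 A_52_P236072 -0.037 to 0.070, Mtf1 A_52_P467266 -0.0079 to 0.061, Slc39a4 -0.46 to 0.012, for the difference of the effects, Mt2 -0.19 to 0.067, Mt3 -0.14 to 0.044, Mtf1 A_66_P122382 -0.062 to 0.012, Slc30a2 -0.39 to 0.15, and for the line difference of the knockouts, Slc39a4 -0.31 to 0.33, Slc39a8 A_52_P25219 -0.31 to 0.082. Between the wild types, not tested, the covariates turned Slc39a4 to 0.79, Slc39a14 to 0.24 and the Slc39a8 probes A_52_P485939, A_66_P103684 and A_52_P25219 to -0.91, -0.81 and -0.73, and leaving out 1 array gave ranges across 0 for A_52_P485939 (-0.12 to 0.27) and A_52_P25219 (-0.0090 to 0.32). Of all tests under these alternatives, leaving out single arrays aside, 674 kept direction and side of the threshold, 18 kept direction but were no longer called, 2 became called and 47 changed sign. The 2 markers measured for epididymis and the 5 to 7 arrays in a group limit what could be resolved.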

Other observations

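Genes responsive to other known inducers of metallothioneins were looked at as lists of 10. Of 10 glucocorticoid-responsive genes, 3 were higher and 1 lower in ChREBPtotal_KO than in ChREBPtotal_WT, where 9.25% of all genes were called, with a list median of 0.33 beside 0.02 over all genes. The higher ones were Zbtb16 by 1.00 (adjusted p = 0.0298), Pdk4, which curbs glucose oxidation, by 0.70 (adjusted p = 0.000535) and Tsc22d3, which encodes GILZ, by 0.52 (adjusted p = 0.0103), and the kinase gene Sgk1 fell by 0.58 (adjusted p = 0.0192, all limma). Between the knockouts, where 18.3% of all genes were called, 5 were higher in ChREBPtotal_KO and 0 lower, with the clock gene Per1 first at 1.13 (adjusted p = 0.000213). None passed for ChREBPbeta loss, where 2 had an unadjusted p under 0.05 in the limma fit, although the 2 knockout effects differed for Dusp1, an immediate early phosphatase gene, by -1.06 (adjusted p = 0.0229).

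The 2 other lists had about the background share of called genes, 9.25%, for loss of both isoforms. Of 10 acute-phase genes, 1 was called, Saa3, a serum amyloid gene of adipose tissue and macrophages, with a difference of -2.24 or 4.72-fold lower (adjusted p = 0.0161, limma) with all KO arrays below all WT arrays. Of 9 measured oxidative stress genes of 10, 1 was called there, the thioredoxin reductase gene Txnrd1, with a difference of -0.23 (adjusted p = 0.0337, limma). Neither list had a called gene for ChREBPbeta loss, with 1 gene of each at an unadjusted p under 0.05 in the limma fit.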
